A study of Mus musculus with 18 samples.

Results

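Epiblast stem cells (EpiSCs) were compared with epiblast-like cells (EpiLCs), as the late primed and the early postimplantation state of mouse pluripotency. The comparison took every library that the labels assign to either cell type, 3 of EpiSCs and 3 of EpiLCs, which is 6 of the 18 RNA-seq libraries, and all genes. The other 12 libraries, from ESCs, AFSCs, ASCs and ESC-ASCs, entered the shared estimate of the spread between replicates, the filter on low counts and, where they are named, levels given for reference. All 6 libraries carry the source name of embryonic stem cells, the strain 129S2/SvPasCrl and a wild type genotype in the labels, whereas the study's methods describe cells of mixed background. PolyA RNA was taken from bulk cultures, and no treatment or time point is given for either cell type. For another assay, the study states that its ESC, EpiLC, AFSC and EpiSC lines came from crosses of 129/sv females with GOF-GFP reporter males of mixed background. The culture medium and line behind the EpiLC and EpiSC libraries are not given in the sources used here, so cell line and pluripotent state cannot be told apart. The labels number 3 samples in each group and the study calls its transcriptome replicates biological, but whether they were separate lines or cultures of 1 line is not stated, and p-values measure the spread between these samples.

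In the embryo, pluripotent cells of the blastocyst pass at implantation into a formative epiblast, which can still be directed to germ cells, and then into a primed epiblast that is patterned by Nodal, Wnt, BMP and FGF signals before the primitive streak forms. EpiLCs are made by a short exposure of naive ESCs to activin and FGF and are used as a model of the early postimplantation epiblast. EpiSCs are stable lines taken from the later postimplantation epiblast. During the same interval the genome gains DNA methylation, and promoters of many germline genes, which are rich in CG dinucleotides, become methylated in the epiblast.

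Total counts were 6976376 to 9742624 in EpiSCs and 8343111 to 9906473 in EpiLCs. Of 35773 genes, 16901 had at least 10 counts in at least 3 of the 18 libraries and were tested. Levels are given as normalized counts per kb, which are counts divided by a size factor for the library and by the exonic length. A gene was called when its adjusted p was below 0.05 (edgeR's quasi-likelihood test, Benjamini-Hochberg adjustment over all 16901 genes) and its fold change was over 2. No 2 libraries were identical, but EpiLC replicate 1 stood apart from the other EpiLC libraries, with a chi-square per degree of freedom of up to 23.4 against 2.21 between the other 2. In the same measure EpiSC replicate 2 stood apart, with 9.6 and 10.7 against 1.91. Genes of chromosome 12 were also raised together in all 3 EpiSC libraries, by a median of 0.511 to 0.538 on the log2 scale over 417 expressed genes, and genes of that chromosome are marked where they are named.

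**Figure D1:**
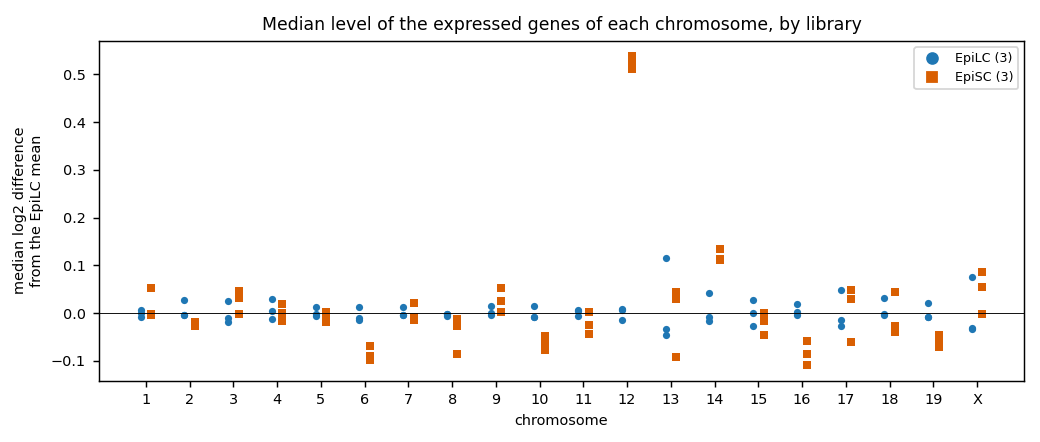
Median over the expressed genes of each chromosome (x axis) of the log2 difference from the EpiLC mean (y axis), with 1 point per library, EpiSCs as squares and EpiLCs as circles. The 3 EpiSC libraries sit at 0.511 to 0.538 on chromosome 12, above every other point.

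The groups differed widely. Of the 16901 genes, 2018 were higher in EpiSCs (11.9%) and 2818 were lower (16.7%), and these shares are the background for every count of listed genes given here. At the adjusted p alone, 3642 were higher (21.5%) and 4564 lower (27.0%), 48.6% of all genes together, and the called genes made up 28.6%. In 10304 genes (61.0%) the 3 EpiSC values did not overlap the 3 EpiLC values. The median log2 fold change of all tested genes, EpiSCs against EpiLCs, was -0.0744. With a fold change over 4 and a mean log2(normalized counts per kb) above 3 in either group, 598 genes were higher (3.54%) and 985 were lower (5.83%). Of the tested genes, 631 had no count in any EpiSC library and 456 of these were called lower, while 126 had no count in any EpiLC library and 43 of these were called higher. In bulk RNA, fewer cells of a type and less RNA per cell cannot be told apart.

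**Figure D2:**
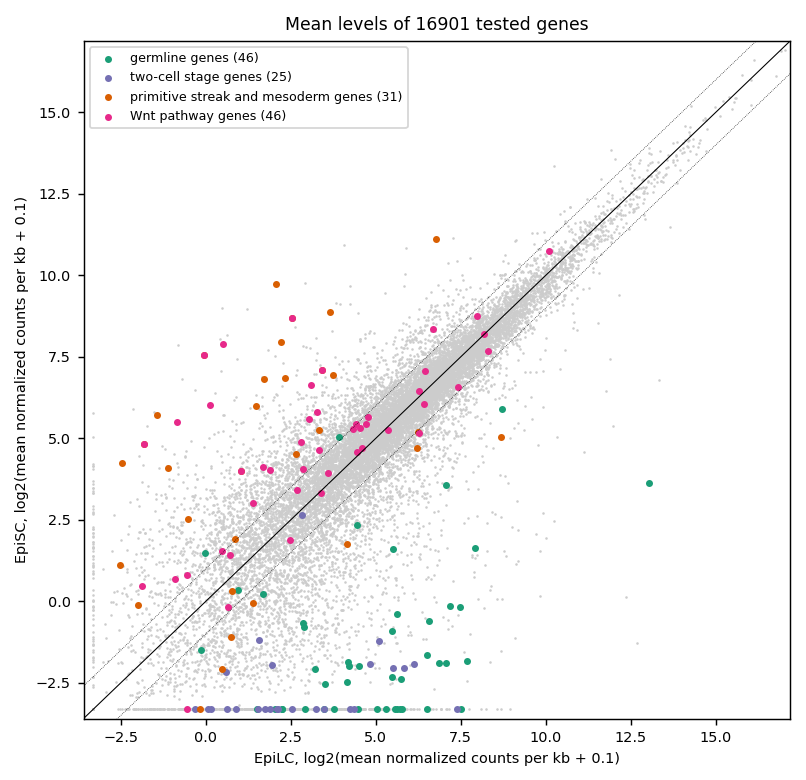
Mean log2(normalized counts per kb + 0.1) of every tested gene in EpiSCs (y axis) against EpiLCs (x axis), with members of 4 lists coloured, the diagonal drawn as a line and 2-fold differences dotted. Most germline and 2-cell stage genes lie far below the diagonal, many at the floor of the EpiSC axis, and most streak genes lie above it. A gene of both the streak and Wnt lists has the colour of the Wnt list.

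Genes were then read by 29 lists of known roles. The lists of primitive streak and mesoderm genes and of Wnt pathway genes held the highest shares of genes raised in EpiSCs, and the lists of germline and 2-cell stage genes the highest shares of lowered genes. The plot of fold changes by list orders 28 of them by their medians, from -7.0 for germline genes to 3.24 for streak and mesoderm genes.

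**Figure D3:**
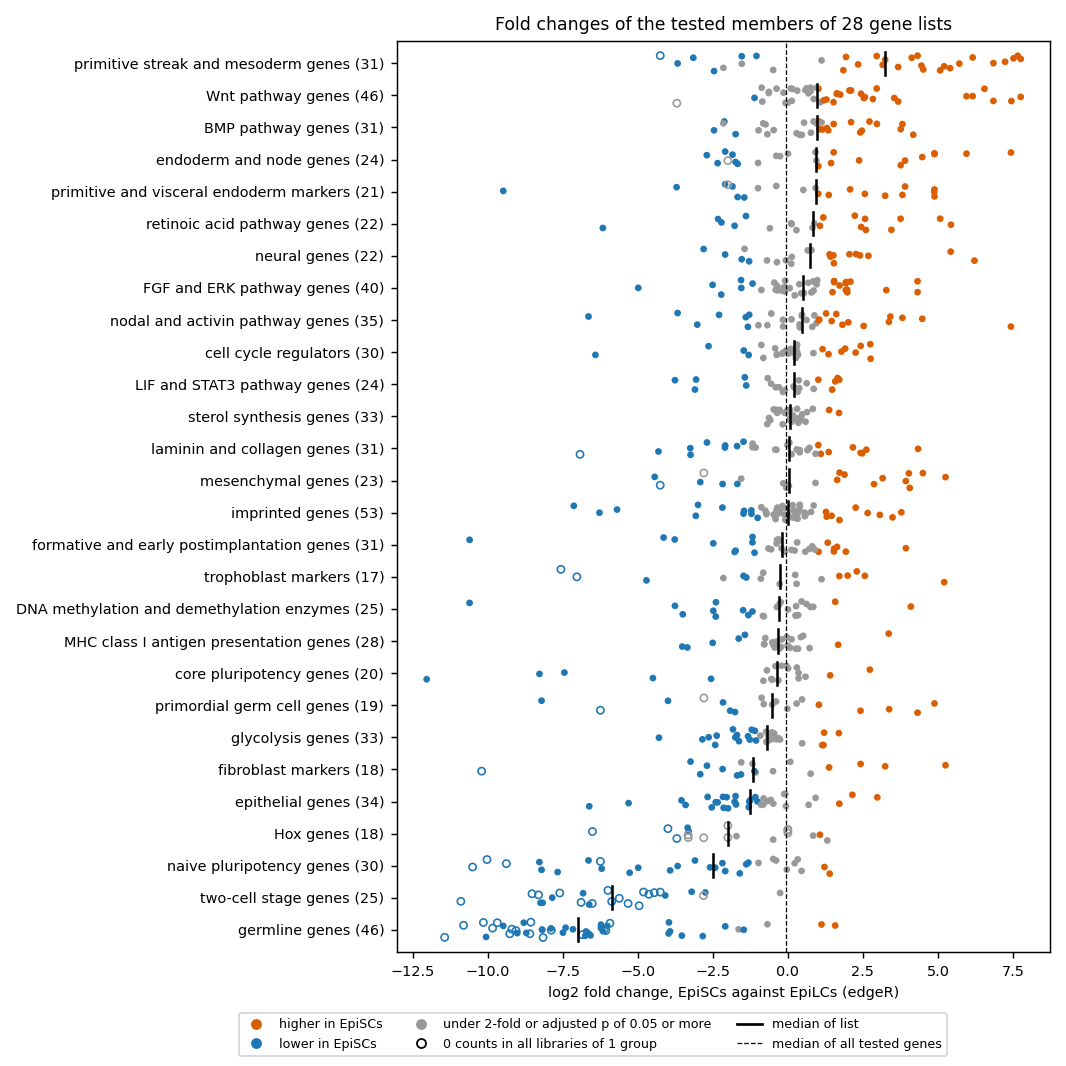
Log2 fold change of each tested member of 28 lists (x axis, EpiSCs against EpiLCs), with the number tested in brackets, list medians as black bars and the median of all genes as a dashed line. Open circles are genes without a count in all libraries of 1 group, and most of them are in the 2-cell stage, germline and Hox lists.

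Markers of the 2 labels were examined first. *Fgf5*, a growth factor of the postimplantation epiblast (chr5:98254184-98277030 in GRCm38), was at 708, 864 and 779 per kb in EpiSCs and at 252, 259 and 287 in EpiLCs, and its mean in ESCs was 0. *Pou3f1*, a POU factor of the early postimplantation epiblast, was at 30.3, 47.4 and 35.5 in EpiSCs and at 550, 677 and 760 in EpiLCs. *Otx2*, a homeobox factor of the formative and anterior epiblast, was at 336 to 388 in EpiSCs and 194 to 214 in EpiLCs. Both groups thus held the postimplantation markers, and each marker was separated with no overlap, though not in the same direction. *Pou3f1* was lower in EpiSCs by a log2 fold change of -4.14 ± 0.18 (SE, n = 3 against 3, adjusted p = 2.07e-12). *Fgf5* was higher in EpiSCs by 1.54 ± 0.17, and *Otx2* by 0.81 ± 0.12, which passed the test but was under 2-fold. Of 31 formative and early postimplantation genes tested, 7 were higher and 9 lower, with a median of -0.211.

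Among the core pluripotency factors, *Pou5f1* (OCT4; chr17:35506018-35510772) was at 8210, 7670 and 8380 per kb in EpiSCs and at 7160, 5640 and 5920 in EpiLCs. The groups did not overlap, but the difference of 0.36 ± 0.19 did not pass the test (adjusted p = 0.136). *Nanog* (chr6:122707489-122714633), a homeobox factor of the pluripotent network, was at 1620, 1280 and 1530 in EpiSCs against 263, 193 and 204 in EpiLCs. *Sox2* (chr3:34650405-34652461), the partner of OCT4 on DNA, went the other way, at 85.5, 67.3 and 75.6 against 539, 378 and 410. *Nanog* was therefore higher by 2.73 ± 0.17 (adjusted p = 1.51e-10) and *Sox2* lower by a log2 fold change of -2.56 ± 0.20 (adjusted p = 3.23e-09). *Utf1*, a chromatin-associated factor of pluripotent cells, was at 163 to 184 in EpiSCs and 3670 to 3970 in EpiLCs. *Dppa2* and *Dppa4*, paired factors of early embryos, had log2 fold changes of -7.44 ± 0.22 and -8.27 ± 0.27, with *Dppa4* at 1.71 to 4.98 in EpiSCs and 820 to 1070 in EpiLCs. Of the 20 core genes tested, 2 were higher and 5 lower.

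Genes of naive pluripotency, which mark the blastocyst epiblast and ESCs, were mostly lower in EpiSCs. *Esrrb*, a nuclear receptor of the naive network on chromosome 12, was at 1.3, 0.583 and 0.947 per kb in EpiSCs, at 8.22, 14.8 and 11.5 in EpiLCs and at 735 ± 120 (SD, n = 3) in ESCs. *Zfp42* (REX1) had no count in EpiSCs and was at 104, 84.7 and 76.2 in EpiLCs, which was at least 162-fold higher when 3 counts over the EpiSC group are taken as the floor. *Nr0b1*, encoding DAX1, also had no count in EpiSCs and was at least 115-fold higher in EpiLCs. *Dppa5a*, an RNA-binding protein of early embryos, had 2 counts in all EpiSC libraries together and 9580 in EpiLCs, a ratio of 4810 (95% exact counting interval 1330 to 39700; intervals and floors cover counting error only). *Klf4* showed no such gap, at 4.7 to 6.65 in EpiSCs and 3.86 to 4.64 in EpiLCs (0.33 ± 0.24, adjusted p = 0.372), against 786 ± 108 in ESCs. Of 30 naive genes tested, 21 were lower and 2 were higher, with a median of -2.5.

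Genes of the primitive streak, the site where mesoderm and endoderm arise, were the reverse. *T* (brachyury; chr17:8434423-8442496), the T-box factor of the streak, was at 400, 426 and 424 per kb in EpiSCs and at 4.99, 6.5 and 5.55 in EpiLCs. *Eomes* (chr9:118478212-118486132), a T-box factor of early mesoderm and endoderm, was at 448, 502 and 467 against 10.3, 14.9 and 12.4. *Gsc* (goosecoid; chr12:104471209-104473330), of the anterior streak and on chromosome 12, was at 852, 710 and 974 against 3.64, 2.79 and 5.91. Every EpiSC library was far above every EpiLC library for these 3 factors. The log2 fold changes were 6.16 ± 0.27 for *T* (adjusted p = 1.53e-12), 5.21 ± 0.19 for *Eomes* (adjusted p = 1.31e-13) and 7.66 ± 0.29 for *Gsc* (adjusted p = 1.81e-13). *Mixl1*, a homeobox gene of mesendoderm, was higher by 4.45 ± 0.35. *Lhx1*, a LIM homeobox gene of the anterior mesendoderm, had 623 counts in EpiSCs and 3 in EpiLCs, a ratio of 207 (interval 70.4 to 1000). *Evx1*, a homeobox gene of the posterior streak, reached only 15.5 to 17.8 per kb in EpiSCs, with a ratio of 47.8 (interval 16 to 234). *Aplnr*, the apelin receptor of early mesoderm, had 203 counts in EpiSCs and 1 in EpiLCs, a ratio of 202 (interval 35.9 to 8020).

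Of the 40 streak and mesoderm genes listed, 31 were tested, 21 were higher in EpiSCs and 6 lower, with a median log2 fold change of 3.24, which was 2.17 over all 40 without a filter on low counts. The lowered members included *Lefty2*, an inhibitor of Nodal, at 30.4 to 34.4 per kb in EpiSCs and 362 to 444 in EpiLCs (-3.67 ± 0.23), *Bmp4* (-2.46 ± 0.28) and the Notch ligand *Dll1* (-1.54 ± 0.17). The 9 members with too few counts to test included the paraxial and cardiac mesoderm genes *Mesp1*, *Tbx6* and *Msgn1*, so the rise covered streak genes that were measured and not all listed genes. In AFSCs, the other primed group, mean levels were lower than in EpiSCs, at 85.7 ± 38.6 (SD) for *T*, 159 ± 33.8 for *Eomes* and 48.1 ± 3.7 for *Gsc*.

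**Figure D4:**
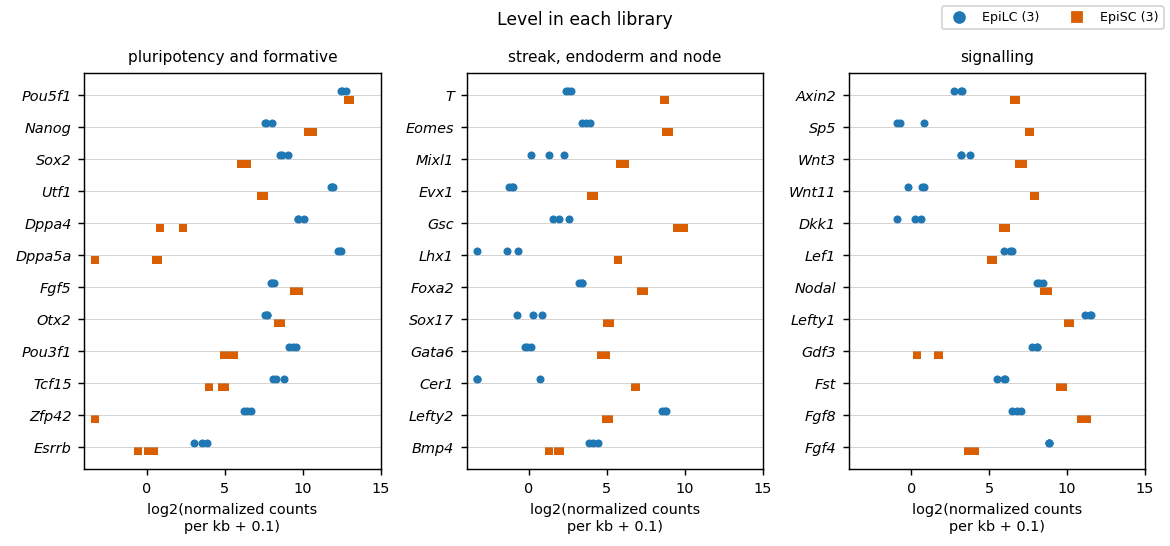
Log2(normalized counts per kb + 0.1) of 36 genes (rows) in each EpiSC library (squares) and EpiLC library (circles), in panels for pluripotency, streak with endoderm and node, and signalling. *T*, *Eomes*, *Gsc* and *Wnt11* stand at higher levels in all 3 EpiSC libraries, while *Zfp42*, *Dppa5a*, *Gdf3* and *Fgf4* stand at lower levels.

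Endoderm and node genes moved in both directions. *Foxa2*, a forkhead factor of endoderm and node, was at 148, 149 and 163 per kb in EpiSCs and at 10.7, 10.5 and 9.03 in EpiLCs (3.90 ± 0.20, adjusted p = 1.38e-11). *Sox17*, an SRY-box factor of definitive endoderm, was at 35.2, 31.6 and 37.0 against 0.484, 1.67 and 1.12 (4.88 ± 0.35), and *Gata6*, a zinc finger factor of endoderm, at 24.7 to 30.1 against 0.724 to 1.01 (4.89 ± 0.41). *Cer1*, a secreted antagonist of Nodal and BMP, had 579 counts in EpiSCs and 3 in EpiLCs, a ratio of 192 (interval 65.4 to 934). Among genes lower in EpiSCs were the apolipoprotein *Apoe* (-2.70 ± 0.17), the keratin *Krt19* (-2.34 ± 0.46) and the laminin *Lama1* (-2.09 ± 0.35). Of 33 listed, 24 were tested, 11 were higher and 6 lower, with a median of 0.937, which was 0.0395 over all 33 without a filter on low counts (12 higher, 8 lower).

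The Wnt pathway held the most one-sided signalling list. Wnt ligands bind Frizzled receptors and stabilize β-catenin, which acts with TCF/LEF factors at genes such as *Axin2*, *Sp5* and *T*. Of 49 genes listed, 46 were tested, 22 were higher in EpiSCs and 1 was lower, against a background of 11.9% and 16.7%, and the median was 0.988. Of the 46, 29 reached 10 counts in every library of both groups, 11 did so in EpiSCs alone and 0 in EpiLCs alone. Some members were thus detected only through the group where they were higher. Without a filter on low counts, 23 of the 49 were higher and 1 lower. *T*, *Sp5*, *Wnt3* and *Frzb* are also in the streak list, so the 2 lists are not separate results. Among the ligands, *Wnt11* (chr7:98835112-98855195) was at 237, 231 and 246 per kb in EpiSCs and at 1.68, 1.5 and 0.776 in EpiLCs, and *Wnt3*, the ligand needed for streak formation, was at 145, 118 and 146 against 13.5, 9.2 and 9.05. Among the target genes, *Axin2* was at 98.9, 103 and 98.0 against 6.51, 9.48 and 9.13, and *Sp5* (chr2:70474923-70477729) was at 195, 184 and 191 against 1.65, 0.421 and 0.51. All 4 were separated between the groups with no overlap. Their log2 fold changes were 7.45 ± 0.32 for *Wnt11* (adjusted p = 1.38e-12), 3.67 ± 0.24 for *Wnt3*, 3.55 ± 0.20 for *Axin2* and 7.76 ± 0.34 for *Sp5* (adjusted p = 1.87e-12). Inhibitors were raised as well, with *Dkk1* at 60.3 to 68.4 against 0.441 to 1.43 (5.95 ± 0.44) and *Frzb* at a ratio of 135 (interval 37.0 to 1120), as was the agonist *Rspo3* at a ratio of 106 (interval 35.9 to 516). The lower gene was the DNA-binding factor *Lef1*, at 35.1 to 37.3 in EpiSCs and 60.9 to 89.4 in EpiLCs (-1.11 ± 0.15). *Sp5* and *Axin2* were not highest in EpiSCs among the study's groups, since their means in ESCs were 522 ± 20.7 and 209 ± 21.3.

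Promoters from RefSeq (GRCm38.p6, 250 bases before to 50 after the start) were available for 14 of the 22 raised Wnt genes. They were searched on both strands for CTTTGAT, a form of the TCF/LEF motif, which was found in 2 of them (14.3%), *Sp5* and *Wnt11*, against 4.29% of the 27025 genes in the table and 3.06% of tested genes with a promoter. Both are shown 5′ to 3′ on the gene's strand because these are the 2 raised Wnt genes with the motif, and they have the highest fold changes of the list. The motif or its reverse complement is in capitals and starts 104 bases before the start of *Sp5* (window chr2:70474673-70474972, + strand) and 51 bases before the first of 2 starts of *Wnt11* in the table (window chr7:98834862-98835161, + strand). The window of the other *Wnt11* start (chr7:98838595-98838894) held no match. A match describes letters in the window and is no evidence of binding.
Sp5: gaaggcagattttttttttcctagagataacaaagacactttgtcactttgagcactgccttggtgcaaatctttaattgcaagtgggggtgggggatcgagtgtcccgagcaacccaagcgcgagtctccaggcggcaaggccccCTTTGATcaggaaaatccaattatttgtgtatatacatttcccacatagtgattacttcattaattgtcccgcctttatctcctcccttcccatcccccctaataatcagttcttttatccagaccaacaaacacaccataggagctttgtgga
Wnt11: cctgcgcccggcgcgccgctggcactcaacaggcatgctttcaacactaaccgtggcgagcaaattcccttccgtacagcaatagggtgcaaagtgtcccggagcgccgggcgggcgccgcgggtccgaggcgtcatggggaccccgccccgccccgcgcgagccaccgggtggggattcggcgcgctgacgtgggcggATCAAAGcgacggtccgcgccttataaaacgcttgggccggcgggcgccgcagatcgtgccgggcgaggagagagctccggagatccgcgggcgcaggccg

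Nodal signals through activin receptors and FOXH1 and maintains the primed state, and its ligands and inhibitors did not move together. *Nodal* itself was at 418, 364 and 428 per kb in EpiSCs and 349, 293 and 264 in EpiLCs (0.40 ± 0.20, adjusted p = 0.101). The ligand *Gdf3* was at 3.25, 3.27 and 1.18 against 272, 271 and 219, and the feedback inhibitor *Lefty1* was at 1080, 1080 and 1160 against 2900, 2820 and 2300. The activin antagonist *Fst* (follistatin) was at 869, 746 and 824 against 63.3, 61.3 and 46.2. Log2 fold changes were -6.64 ± 0.29 for *Gdf3* (adjusted p = 1.41e-12), -1.29 ± 0.17 for *Lefty1* and 3.82 ± 0.23 for *Fst* (adjusted p = 1.23e-10). The transcription factor *Foxh1* was lower (-2.29 ± 0.30), and the co-receptor *Cfc1* higher (3.41 ± 0.46), while the co-receptor *Tdgf1* passed under 2-fold (-0.55 ± 0.17). Of 35 genes tested, 13 were higher and 7 lower, with a median of 0.476.

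FGF ligands moved in opposite directions. *Fgf4* (chr7:144847367-144865243), the ligand of the inner cell mass, was at 12.3, 16.8 and 13.4 per kb in EpiSCs and at 450, 450 and 448 in EpiLCs. *Fgf8* (chr19:45736798-45742915), the ligand of the streak, was at 2470, 1880 and 2280 against 133, 87.8 and 109. The first was lower in EpiSCs by a log2 fold change of -4.98 ± 0.15 (adjusted p = 1.97e-14) and the second higher by 4.32 ± 0.24 (adjusted p = 3.64e-11). *Fgf18*, another ligand, was higher by 4.32 ± 0.37. Feedback inhibitors of ERK signalling were split, with *Spry2* higher (1.97 ± 0.11) and *Spry1* (-1.56 ± 0.15), *Spry4* (-1.55 ± 0.18) and *Dusp4* (-2.51 ± 0.32) lower. The immediate early gene *Fos*, on chromosome 12, was higher by 1.98 ± 0.15. Of 40 FGF and ERK pathway genes, 13 were higher and 6 lower.

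BMP ligands also differed from each other. *Bmp4* was at 3.54, 2.38 and 3.86 per kb in EpiSCs and at 21.8, 17.1 and 14.4 in EpiLCs, whereas *Bmp2* was at 10.3, 13.1 and 9.67 against 0.65, 0.498 and 0.602 (4.18 ± 0.41) and *Bmp7* at 42.4 to 55.1 against 6.32 to 9.24 (2.72 ± 0.21). The target *Id1*, an inhibitor of helix-loop-helix factors, was at 115, 87.4 and 130 against 20.9, 12.2 and 9.23 (2.97 ± 0.31, adjusted p = 2.17e-07), while *Id3* did not pass (0.40 ± 0.20). Of 31 BMP genes tested, 14 were higher and 3 lower, with a median of 0.964. In the retinoic acid pathway, where 10 of 22 were higher and 5 lower, the degrading enzyme *Cyp26a1* was at 118, 102 and 120 in EpiSCs and at 1.96, 4.49 and 3.02 in EpiLCs (5.07 ± 0.35, adjusted p = 6.68e-10). The receptor *Rarg* was at 46.3 to 55.1 against 228 to 267 (-2.32 ± 0.20), and the synthesizing enzyme *Aldh1a2* was at 1.74 to 2.53 against 2.04 to 4.73, which overlapped and did not pass. Of 22 neural genes tested, 10 were higher and 4 lower. *Pax2*, a paired box gene, was higher by 6.22 ± 0.40 and the midbrain gene *En1* by 5.42 ± 0.39, whereas the early neural plate gene *Sox1* was lower, at 0 to 2.01 against 7.75 to 11.5 (-2.81 ± 0.44). Hox genes were near the limit of detection. Of 39 listed, 18 were tested and 5 of these were lower, and levels summed over the 39 were 20.3 to 24.3 per kb in EpiSCs and 41.7 to 52.7 in EpiLCs.

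The widest contrast was in germline genes, which encode proteins of meiosis, of the piRNA pathway and of testis-specific transcription. Of 50 listed, 46 were tested, 42 were lower in EpiSCs and 2 were higher, against a background of 16.7% and 11.9%. The EpiSC and EpiLC values did not overlap in 44 of the 46, against 61.0% of all genes. The median log2 fold change was -7.0, or -6.13 when the 16 genes with no count in EpiSCs were set to their lower bound. Summed over the list, levels were 137 to 145 per kb in EpiSCs and 9590 to 14400 in EpiLCs, of which *Rhox5*, a homeobox gene of the X-linked Rhox cluster, gave 6950 to 11400 in EpiLCs and 9.35 to 17.4 in EpiSCs (-9.48 ± 0.35, adjusted p = 1.31e-13). Only 4 of the tested genes reached 10 counts in every library of both groups, and 35 did so in EpiLCs alone.

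Promoters of 37 of the 42 lowered germline genes were in the RefSeq table. The E-box CACGTG, the core of the motif read by MYC, MAX and MGA proteins, was found in 13 of them (35.1%), against 8.09% of the genes in the table, 11.5% of tested genes with a promoter and 11.1% of lowered genes. The motif is a palindrome, so both strands give the same matches, and its extension TCACGTGA was found in none of the 37, against 1.12% of the table. The median number of CG dinucleotides was 17 in these windows, 8 in the table, 21 in tested genes and 13 in lowered genes. The promoters of 4 genes with the motif are shown, in capitals, because these genes were read in EpiLCs and had at most 1 count in EpiSCs. The windows are chr13:112652261-112652560 (- strand) for *Ddx4*, chrX:134476441-134476740 (- strand) for *Taf7l*, chr5:135349995-135350294 (- strand) for *Fkbp6* and chr1:166238695-166238994 (- strand) for *Mael*.
Ddx4: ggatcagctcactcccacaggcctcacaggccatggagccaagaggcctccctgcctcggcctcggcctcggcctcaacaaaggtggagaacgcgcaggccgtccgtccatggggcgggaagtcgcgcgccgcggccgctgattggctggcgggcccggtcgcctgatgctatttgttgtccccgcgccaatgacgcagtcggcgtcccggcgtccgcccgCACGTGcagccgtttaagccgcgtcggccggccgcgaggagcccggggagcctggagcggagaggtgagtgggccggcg
Taf7l: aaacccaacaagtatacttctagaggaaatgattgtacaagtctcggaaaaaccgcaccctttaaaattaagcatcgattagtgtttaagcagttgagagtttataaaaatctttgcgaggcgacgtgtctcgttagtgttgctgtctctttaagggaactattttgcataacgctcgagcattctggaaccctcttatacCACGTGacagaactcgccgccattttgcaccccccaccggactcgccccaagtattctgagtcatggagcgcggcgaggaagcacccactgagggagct
Fkbp6: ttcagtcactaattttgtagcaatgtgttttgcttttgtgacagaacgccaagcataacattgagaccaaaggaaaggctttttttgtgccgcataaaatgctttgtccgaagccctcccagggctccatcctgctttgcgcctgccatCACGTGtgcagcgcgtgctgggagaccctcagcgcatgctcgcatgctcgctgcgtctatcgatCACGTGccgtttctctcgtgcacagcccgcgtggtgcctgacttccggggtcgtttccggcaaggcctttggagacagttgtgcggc
Mael: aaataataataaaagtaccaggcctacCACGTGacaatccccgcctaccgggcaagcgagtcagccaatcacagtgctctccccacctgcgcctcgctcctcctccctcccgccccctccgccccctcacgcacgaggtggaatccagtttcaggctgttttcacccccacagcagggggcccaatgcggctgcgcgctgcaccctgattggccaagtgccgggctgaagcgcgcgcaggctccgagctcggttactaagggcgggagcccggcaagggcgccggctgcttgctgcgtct

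Counted from the transcription start, the motif began 29 bases upstream in *Ddx4*, 49 in *Taf7l*, 101 and 37 in *Fkbp6* and 223 in *Mael*. The window of a second start of *Fkbp6* (chr5:135349864-135350163) overlaps the first and held the same sites, 232 and 168 bases upstream of that start. *Ddx4*, the RNA helicase VASA of germ cells, was at 31.6, 32.6 and 34.2 per kb in EpiLCs and had no count in EpiSCs, which was at least 91.8-fold higher in EpiLCs. *Taf7l*, a germ cell subunit of the TFIID complex, was at 95.2, 89.4 and 88.2 in EpiLCs and without a count in EpiSCs (at least 200-fold). *Fkbp6*, a cochaperone of the piRNA pathway, was at 188, 178 and 174 against no count (at least 309-fold). *Mael*, the piRNA factor maelstrom, had 582 counts in EpiLCs and 1 in EpiSCs, a ratio of 585 (interval 105 to 23100). The 4 genes were thus read in each EpiLC library and were at or near 0 in each EpiSC library. In ESCs, *Fkbp6* was also read, at a mean of 295 per kb, while *Mael* was at 4.15 ± 0.815 and *Ddx4* at 6.58 ± 2.11.

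Others followed. *Dazl*, the RNA-binding protein of germ cell licensing, had a ratio of 381 (interval 67.9 to 15100), the meiotic recombinase *Dmc1* was at least 102-fold higher in EpiLCs and the germ cell factor *Sohlh2* at least 126-fold. *Xlr3a*, of an X-linked family related to the synaptonemal protein SYCP3, had a ratio of 1220 (interval 338 to 10100), and near-identical copies share its counts. *Sycp3* itself remained above 0 in EpiSCs, at 14.5, 10.5 and 10.6 against 184, 104 and 116 (-3.53 ± 0.40). The exceptions were *Hspa2*, a testis chaperone on chromosome 12 at 31.2 to 35.7 against 13.3 to 16.1 (1.12 ± 0.19), and *Spo11*, the meiotic endonuclease, at 3.01, 3.37 and 1.7 against 1.47, 0.902 and 0.273 (1.58 ± 0.61). The call of *Spo11* was lost without EpiLC replicate 2 or 3 or without EpiSC replicate 1 or 2, with log2 fold changes of 1.61, 1.18, 1.52 and 1.34, and also with DESeq2's Wald test in place of edgeR's (1.62, adjusted p = 0.0613). Genes of primordial germ cells, the embryonic founders of the germline, did not follow the germline list, with 5 of 19 higher and 6 lower. Their specifiers were low and overlapped, with *Prdm1* at 5.26 to 7.82 in EpiSCs and 3.37 to 5.64 in EpiLCs (0.47 ± 0.26) and *Tfap2c* at 13.2 to 15.7 against 11.3 to 13.2 (0.29 ± 0.15). *Kit*, the receptor of germ cell precursors, was at 118, 114 and 123 against 10.2, 11.4 and 12 (3.38 ± 0.29), and *Dppa3* (STELLA) had 1 count in EpiSCs and 383 in EpiLCs, a ratio of 385 (interval 68.7 to 15200).

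**Figure D5:**
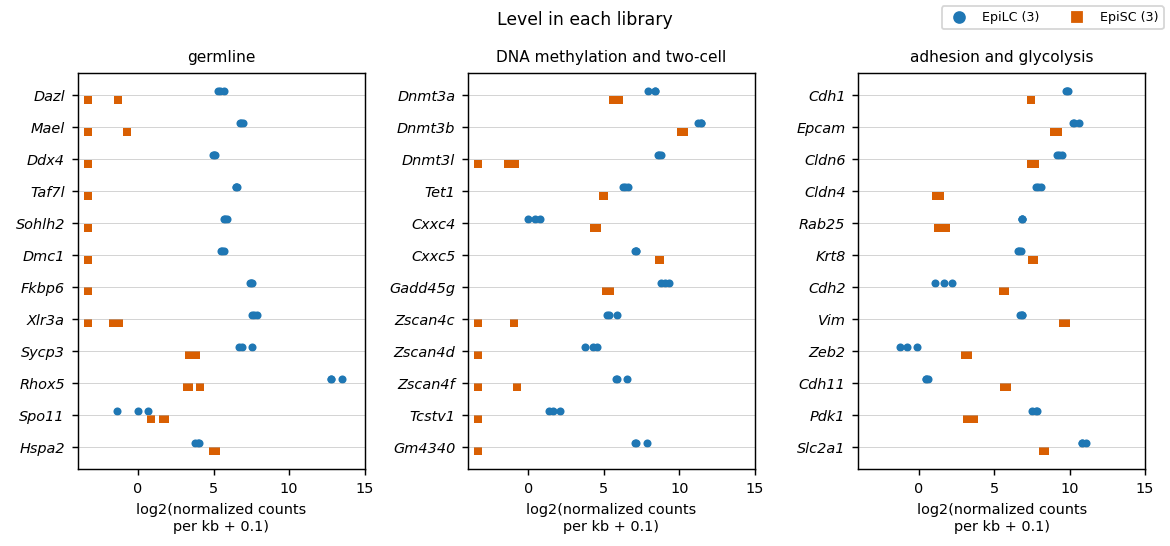
Log2(normalized counts per kb + 0.1) of 36 genes (rows) in each EpiSC library (squares) and EpiLC library (circles), in panels for germline, DNA methylation with 2-cell stage, and adhesion with glycolysis. Squares at the left edge of the first panel are EpiSC libraries without a count, as for *Ddx4*, *Taf7l* and *Fkbp6*, while *Spo11* and *Hspa2* are the 2 germline genes with higher EpiSC levels.

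Genes of the 2-cell stage, when the zygotic genome is first transcribed, were lower too. Of 32 listed, 29 were in the files, 25 were tested and 23 were lower in EpiSCs, none higher. The median was -5.87, but 16 of the 25 had no count in EpiSCs and the median with bounds was -3.2. *Zscan4c*, a zinc finger gene of the Zscan4 cluster, had 115, 106 and 80 counts in the EpiLC libraries and 0, 0 and 1 in EpiSCs, a ratio of 302 (interval 53.9 to 12000). *Zscan4d* was at least 40.5-fold higher in EpiLCs and *Gm4340* at least 209-fold, while *Tcstv1* had 5, 4 and 4 counts in EpiLCs and none in EpiSCs (at least 4.35-fold). These genes have near-identical copies that share counts, so the 23 are not separate measurements, and in EpiLCs the list summed to 417 to 671 per kb. Requiring the count minimum within the 6 libraries left 10 genes, and all 10 were lower. Of the 25 tested, 10 reached 10 counts in every EpiLC library and 0 did so in EpiSCs. That filter thus kept genes through EpiLCs, where they were higher, and adds no support.

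The DNA methyltransferases that set new methylation were lower in EpiSCs. *Dnmt3l* (chr10:78041947-78063622), the cofactor without catalytic activity, was at 0.439, 0.295 and 0 per kb in EpiSCs and at 386, 408 and 432 in EpiLCs, with 2 counts against 3583, a ratio of 1800 (interval 498 to 14900). *Dnmt3a* (chr12:3806007-3914443, on chromosome 12) was at 49.5, 65.2 and 50.2 against 241, 334 and 338, and *Dnmt3b* was at 1130, 1280 and 1160 against 2440, 2750 and 2790. *Dnmt3a* was lower by a log2 fold change of -2.48 ± 0.16 (adjusted p = 2.14e-10) and *Dnmt3b* by -1.18 ± 0.14 (adjusted p = 1.14e-06). *Tet1*, which oxidizes methylcytosine, was at 30.2 to 31.7 against 75.6 to 95.4 (-1.49 ± 0.23). *Gadd45g*, linked to demethylation and stress, was lower by -3.76 ± 0.28 on the log2 scale. The CXXC zinc finger genes *Cxxc4* (4.10 ± 0.28) and *Cxxc5* (1.58 ± 0.14) were the 2 raised members. Of the 25 genes, 9 were lower and 2 higher, with a median of -0.282. DNA methylation itself was not measured in these libraries.

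Imprinted genes, which are read from 1 parental copy, balanced out, with 9 of 53 higher, 11 lower and a median of 0.000571. *H19*, the maternally read noncoding RNA, and *Igf2*, the paternally read growth factor beside it, moved in opposite directions. *H19* was at 4.98, 0 and 0 per kb in EpiSCs and at 113, 104 and 97.9 in EpiLCs (-6.27 ± 0.67, adjusted p = 3.7e-07). *Igf2* was at 38.8, 43.3 and 36.2 against 4.64, 2.47 and 1.5 (3.78 ± 0.35, adjusted p = 4.35e-08). At the neighbouring cluster, *Cdkn1c*, a cell cycle inhibitor, was higher (2.26 ± 0.21) and the antisense RNA *Kcnq1ot1* had 3 counts in EpiSCs and 453 in EpiLCs, a ratio of 152 (interval 51.6 to 738), in counts that do not use strand. *Gnas*, a G protein subunit, was at 1490, 1250 and 1480 against 199, 147 and 152 (3.06 ± 0.26). *Meg3*, on chromosome 12, was at 282 to 366 against 225 to 296, which overlapped (0.33 ± 0.28, adjusted p = 0.347).

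Epithelial genes were mostly lower in EpiSCs, with 20 of 34 lower, 3 higher and a median of -1.27. *Cdh1* (E-cadherin; chr8:106603351-106670246), which joins epithelial cells, was at 170, 177 and 174 per kb in EpiSCs and at 915, 964 and 849 in EpiLCs. *Cldn4* (claudin 4; chr5:134945119-134946934), of tight junctions, was at 2.17, 2.43 and 2.63 against 236, 269 and 219, and *Rab25*, a GTPase of epithelial trafficking, was at 2.35, 2.63 and 3.42 against 114, 113 and 114. All were separated, with log2 fold changes of -2.40 ± 0.24 (adjusted p = 9.45e-08), -6.61 ± 0.27 (adjusted p = 6.62e-13) and -5.30 ± 0.25 (adjusted p = 3.97e-12). The higher members were the keratin *Krt7* (1.72 ± 0.24) and the desmosomal genes *Dsp* (2.98 ± 0.28) and *Dsc2* (2.15 ± 0.35). Mesenchymal genes were split, with 10 of 23 higher and 5 lower. *Cdh2* (N-cadherin) was at 49.1, 51.5 and 47.7 in EpiSCs and 4.58, 3.07 and 1.99 in EpiLCs (3.93 ± 0.30), and the intermediate filament *Vim* was at 882, 764 and 854 against 116, 106 and 116 (2.87 ± 0.18, adjusted p = 1.26e-10). The repressors *Zeb1* and *Zeb2* of epithelial genes were higher by 4.50 ± 0.31 and 4.03 ± 0.36, at 11.1 to 13.9 and 8.44 to 9.34 per kb in EpiSCs. Fibronectin *Fn1* was lower (-1.68 ± 0.27), as was *Twist1*, on chromosome 12 (-2.17 ± 0.34). Laminin and collagen genes moved both ways, with 8 of 31 higher and 9 lower.

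Glycolysis genes were more often lower, with 14 of 33 lower and 4 higher and a median of -0.711. *Slc2a1* (GLUT1), the basal glucose transporter, was at 322, 300 and 332 per kb in EpiSCs and at 1840, 2180 and 1840 in EpiLCs. *Pdk1* (chr2:71873224-71903858), a kinase that inhibits pyruvate dehydrogenase, was at 9.28, 10.8 and 12.5 against 185, 218 and 231. The lactate exporter *Slc16a3* was at 128, 140 and 137 against 921, 1070 and 894. Log2 fold changes were -2.64 ± 0.19, -4.29 ± 0.16 and -2.85 ± 0.17. The enzyme gene *Pkm* overlapped, at 6240 to 9480 against 8910 to 12600 (-0.60 ± 0.34, adjusted p = 0.16). So did *Ldha*, at 4040 to 5130 against 4980 to 6290 (-0.38 ± 0.28). Levels summed over the list were 41600 to 45500 per kb in EpiSCs and 70400 to 74500 in EpiLCs. The groups did not overlap in 28 of the 33 genes, against 61.0% of all genes. *Hif1a*, on chromosome 12, was higher (1.21 ± 0.18), as was *Slc2a3* (GLUT3; 1.14 ± 0.24). Sterol synthesis had the fewest called genes of the 29 lists, with 2 of 33 higher and none lower.

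In the cell cycle list, 8 of 30 were higher and 4 lower. *Cdkn2a*, which encodes the inhibitors p16 and p19ARF, was at 1.12, 3.01 and 3.26 per kb in EpiSCs and at 255, 213 and 213 in EpiLCs (-6.41 ± 0.34, adjusted p = 1.78e-11). Cyclin D2 (*Ccnd2*) was at 52.3, 66.1 and 57.4 against 6.63, 9.87 and 9.1 (2.76 ± 0.20), *Cdk6* was higher by 2.43 ± 0.20 and *Mycl* by 2.75 ± 0.23, while cyclin E1 (*Ccne1*) was lower (-1.30 ± 0.13). In the LIF and STAT3 pathway, 5 of 24 were higher and 5 lower, with *Socs3*, the feedback inhibitor, higher by 1.48 ± 0.19 and *Stat3* not passing (-0.16 ± 0.22). In MHC class I presentation, 2 of 28 were higher and 5 lower, with *B2m*, the light chain of class I molecules, at 360, 261 and 326 against 122, 77.1 and 94.6 (1.68 ± 0.30, adjusted p = 0.00013).

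Markers of other cell types were read beside these results. Of 18 fibroblast markers tested, 4 were higher and 8 lower. Their summed level was 267 to 294 per kb in EpiSCs and 292 to 323 in EpiLCs, and among defining markers *Col1a1* was at 1.02 to 2.55 against 0.704 to 5.54. Among the 8 lower markers, the matrix gene *Dcn* had no count in EpiSCs and was at 79.8, 59.4 and 54.4 in EpiLCs, at least 131-fold higher. The 4 higher markers included *Cdh11*, with 1357 counts in EpiSCs and 35 in EpiLCs, *Pdgfra* with 166 and 17, and *Fbn1* with 425 and 77. Of 17 trophoblast markers, 5 were higher and 5 lower. The trophoblast sum was 740 to 759 against 295 to 299, of which *Eomes*, shared with the streak list, gave 448 to 502 in EpiSCs. *Elf5* and *Gata3* were at or near 0 in both groups, but other trophoblast markers moved each way. *Krt7* had 290 counts in EpiSCs and 86 in EpiLCs, and *Tead4* had 107 and 26. In the other direction, *Gcm1* had 0 and 43, *Rhox4b* 0 and 62, and *Esx1* 1 and 34. Of 21 primitive and visceral endoderm markers, 10 were higher and 6 lower, including *Gata6*, *Sox17* and *Foxa2*, which the endoderm list shares. *Afp* had no count in EpiSCs and 8 in EpiLCs. *Sox7* was at 0.267 to 0.398 in EpiSCs, with 3 counts there and 6 in EpiLCs, so both genes were near the floor in both groups. Other members moved each way, with *Spink1* at 98 counts in EpiSCs and 3 in EpiLCs, and *Apoa2* at 17 and 223. The sum of the primitive and visceral endoderm markers was 2000 to 2160 in EpiSCs and 7510 to 12000 in EpiLCs, and without *Rhox5*, an alternative chosen after seeing the data, it was 1990 to 2140 in EpiSCs and 562 to 637 in EpiLCs, so its direction turned. The part of such cells in the results was not tested. *Xist*, the RNA of the inactive X chromosome, was at 144, 138 and 132 in EpiSCs and at 7.86, 5.77 and 5.43 in EpiLCs (4.43 ± 0.36, adjusted p = 8.95e-09), and the Y-linked genes *Ddx3y*, *Uty*, *Kdm5d* and *Eif2s3y* were below 1 per kb in all 6 libraries. The median log2 fold change of 641 X-linked genes was -0.122 and that of 16212 autosomal genes -0.0731, a difference of -0.0488. Of the 641, 86 were higher (13.4%) and 160 lower (25.0%), against 11.9% and 16.7% of all genes. The lowered ones include the Rhox and Xlr families, whose near-identical copies share counts.

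The genes with the largest fold changes, among called genes above the level threshold, lay partly outside these lists. The 12 most raised included *Sp5*, *Gsc*, the cardiac actin gene *Actc1* (483, 501 and 507 per kb against 0.714, 3.28 and 2.65, 7.69 ± 0.32), the secreted protein gene *Scube2* (at least 72.7-fold higher in EpiSCs), the serotonin receptor gene *Htr7* (at least 37.5-fold) and the protocadherin gene *Pcdhb22* (at least 66.0-fold). The 12 most lowered included *Dppa5a*, *Fkbp6*, *Rbmxl2*, a testis RNA-binding gene at 538, 472 and 473 per kb in EpiLCs and without a count in EpiSCs (at least 710-fold), *Fmr1nb* (at least 347-fold) and *Trim25*, a ubiquitin ligase gene at 52.4, 74.6 and 76.1 in EpiLCs and without a count in EpiSCs (at least 387-fold). *Trim25* was at 194 per kb on average in ESCs and at 0.134 in AFSCs. *Rps4l* and, on chromosome 12, *Rpl10l*, copies of ribosomal protein genes without introns, were also among them, with *Rps4l* at 8460, 5570 and 5920 in EpiLCs and 1 count in all EpiSC libraries.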

How the data were processed

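RNA-seq libraries of 3 EpiSC and 3 EpiLC samples were compared, grouped by the labels. The values used are raw counts of fragments per gene as deposited by the authors, who mapped reads to GRCm38 with TopHat2 and assigned fragments to Ensembl 86 exons by featureCounts 1.5.0-p1 where they overlapped by 10 bases or more. Per the file headers, fragments mapping to several places or genes were counted at each and strand was not used, so near-identical and overlapping genes share counts. Gene names matched 35514 of 35773 IDs.

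The 16901 genes that reached 10 counts in 3 or more of the 18 samples were tested in R 4.3.3 with edgeR 4.0.16 (TMM, quasi-likelihood, robust, dispersion shared by all 18 samples) and Benjamini-Hochberg adjustment. An SE is the log2 fold change divided by the square root of F. Levels were counts over DESeq2 1.42.0 size factors and kb, with a pseudocount of 0.1 on the log2 scale. In simulated data (16901 genes, 200 changed), 85% of genes changed by 1 on the log2 scale and 100% changed by 2 were recovered. Recovery meant an adjusted p below 0.05 without the fold rule, and 4.639% of genes that passed were false. The changed genes were drawn from those above a minimum of expected counts in every library, and every gene had the common dispersion, 0.0283. The rates therefore do not cover genes with few counts. Total counts, given with the results, set the precision. A gene at 0 in a group got a lower bound of 3 counts over that group, and 1 to 3 counts an exact 95% counting interval. Named genes were the 12 with the largest changes each way that passed the level threshold without overlap, the lead genes of each list and up to 5 called members each way. The comparison and lists were chosen with earlier results of these data known. Alternatives were DESeq2's Wald test, its size factors, 2 filters, fits of the 6 samples, a replicate block and leaving out each replicate. The smallest p of an exact permutation of 3 against 3 is 0.1, so none was used. Values of some single genes are not reported here.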

Additional observations from a re-analysis of the deposited data

How the results depend on the processing

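The counts of higher and lower genes stayed within 1.5 times of the values given under every alternative run, and no called gene changed sign in any of them. Leaving out each replicate in turn gave 1920 to 2020 higher and 2666 to 2716 lower genes, or 572 to 632 and 969 to 1002 past the 4-fold and level thresholds. DESeq2 gave 2019 and 2741, no filter 2276 and 3082, the filter within the 6 samples 1846 and 2132. Without a filter the range of chromosome medians was 0.415 in place of 0.602, and the cause was not tested. Same-numbered libraries deviated from their group means with r of 0.114, 0.139 and -0.0612, and EpiSC replicate 2 correlated best with EpiLC replicate 3, so the numbers were not taken as pairs. With a replicate block 2050 genes were higher and 2821 lower (603 and 987 past the stricter thresholds). Alternatives chosen after seeing the data were the 6 samples alone with a replicate block (2129 and 2718), no chromosome 12 (1875 and 2760) and neither the protocadherin alpha and gamma genes nor the first 8 Mb of chromosome 14 (1909 and 2818). Of list counts, the 2-cell stage count fell from 23 to 10 with the filter within the 6 samples, which left 10 genes to test, the Hox count of lowered genes ranged from 1 to 9, and those of fibroblast and mesenchymal genes from 5 to 10 and from 3 to 6. Of 3840 values of 298 named genes over the alternatives, 69 no longer passed at the adjusted p, 23 newly passed and none reversed. The fold threshold was not part of this count. Depth limits Hox, 2-cell stage and other genes with a few counts per library.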

Other observations

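These patterns were chosen after their values were seen and are given without a test of their own. Chromosome 12 was raised as a whole in EpiSCs. Of its 591 tested genes, 143 were higher (24.2%) and 58 lower (9.81%), against 11.9% and 16.7% of all genes, and their median log2 fold change was 0.441. Over 367 expressed genes, its median deviation from the middle of the 6 groups was 0.41, 0.40 and 0.40 in the EpiSC libraries, and the means of the other groups lay between -0.13 and 0.05. In 11 stretches of 10 Mb with at least 20 tested genes, medians ran from -0.017 to 0.729. Copy number was not measured, and its part in the result was not tested.

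Several gene families moved as blocks. In the first 8 Mb of chromosome 14, 74 of 85 tested genes were higher in EpiSCs, with a median of 2.02, and near-identical copies there share counts. All 35 protocadherin alpha and gamma genes were higher, by 1.65 to 2.16, and they share exons and therefore counts. Of the neighbouring protocadherin beta genes, which encode separate adhesion proteins, 5 of 5 tested were higher. Among X-linked families, 18 of 18 Rhox genes and 9 of 9 Xlr genes were lower, against 16.7% of all genes. Both families hold near-identical copies that share counts, so the 18 and the 9 are not separate measurements. Of the oocyte-linked Nlrp genes, 7 of 8 were lower. Of the Platr noncoding RNAs, 17 of 23 were lower.

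The metallothionein genes, whose products bind zinc and copper, were at 48.5, 34.0 and 42.9 per kb in EpiSCs and 5190, 3540 and 3410 in EpiLCs for *Mt1* (-6.62 ± 0.39), with *Mt2* at 80.9 to 132 against 8760 to 13200 (-6.57 ± 0.42). The ferritin chain *Fth1*, which stores iron, was at 2800 to 2920 against 12200 to 14100 (-2.19 ± 0.16). Of 19 tested Gst genes, which encode glutathione transferases, 12 were lower and 3 higher, and *Gstp1* was at 636 to 738 against 4240 to 5150 (-2.78 ± 0.18). EpiLC replicate 1 had the highest value of the EpiLC libraries for *Mt1*, *Mt2*, *Fth1* and *Gstp1*.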
